A study of Mus musculus with 6 samples.

Results

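The transcripts described here encode the nuclear-encoded subunits of the mitochondrial respiratory chain and of ATP synthase. They were taken by symbol from 21955 gene rows: protein-coding genes named as Ndufa, Ndufb, Ndufc, Ndufs or Ndufv with a number, Ndufab1, Sdha to Sdhd, Cyc1, symbols that begin with Uqcr or with Cox4 to Cox8, and Atp5 subunits other than Atp5s. Of 85 such rows, 80 had at least 10 counts in 3 or more libraries and were kept: 37 in complex I, 4 in complex II, 9 in complex III, 14 in complex IV and 16 in ATP synthase. All 80 entered the test.

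Neutrophils were isolated from dura mater, the outer membrane around the brain, of wild-type mice after social threat, and no unexposed mice were included. There were 3 libraries labelled male and 3 labelled female, which differ in the labels only by sex, and the question was whether the state of these cells after exposure differed between the sexes. The labels give neither age nor strain, nor how many mice made up a library. They do not state that each library is a separate animal, and p-values therefore reflect only library-to-library spread, which may be technical.

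The respiratory chain passes electrons from NADH (complex I) and succinate (complex II) through ubiquinone, complex III and cytochrome c to oxygen at complex IV. Complexes I, III and IV pump protons across the inner mitochondrial membrane, and ATP synthase uses the return flow of protons to make ATP. Most subunits are encoded in the nucleus and imported, while a small set is encoded by mitochondrial DNA. Complex II is the exception, with no mitochondrially encoded subunit. Neutrophils are known for few mitochondria and for ATP made largely by glycolysis.

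Total counts ran from 17098026 to 20778410, of which the 80 genes held 0.655 to 0.713%. Summed Y-linked transcripts (Ddx3y, Eif2s3y, Kdm5d and Uty) lay between 307 and 328 CPM (counts scaled to a common library size after TMM normalization) in all 6 libraries, with a lowest adjusted p of 0.475. That goes against the label female in all 3 libraries carrying it, so each direction below is between libraries so labelled. Female replicate 3 stood apart from the other libraries of its label, with chi-square per degree of freedom 14.1 and 17.4 against 5.32 between those. Defining neutrophil transcripts summed to between 52796 and 74730 CPM, with 6 of 9 higher in the libraries labelled female. Of other cell types, 7 of 12 B cell markers (168 to 235 CPM summed, against 279 to 344) and 7 of 10 dendritic cell markers (302 to 318, against 449 to 465) were lower. Erythroid markers were higher in 5 of 8 (48.9 to 79.1, against 28.6 to 34.1), 2 of 5 fibroblast markers were lower (12.6 to 17.7, against 19.9 to 27.5), monocyte and macrophage markers moved both ways (2 of 12 higher, 1 lower; 2447 to 2499, against 2231 to 2294), and 1 of 9 T and NK cell markers was lower (137 to 165, against 145 to 170). Of 9 mature neutrophil markers 8 were higher (4493 to 5446, against 2361 to 2707), of 9 precursor markers 1 was lower (6691 to 6949, against 6981 to 7114), and none of 5 endothelial markers passed (53.1 to 62.9, against 63.6 to 69.6). Of all genes tested, 7.29% were higher and 6.62% lower. Sums are over every listed marker with a row, 9 for fibroblasts and 8 for endothelial cells, of which 5 each were tested. No listed marker with a row was at 0 in every library. In bulk RNA, fewer cells of a type and less RNA per cell cannot be told apart, and the part of these shifts in the differences below was not tested.

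Sequence upstream of these genes is shown because they share a known set of regulators of nuclear genes for mitochondrial proteins: NRF1, the ETS family factor GABP, and YY1. RefSeq promoter windows (build GRCm38.p6, 250 bases before to 50 after a start) were found for 66 of the 80 genes, in 71 windows, and were searched on both strands. The NRF1 motif, the 10 bases in capitals in the sequences printed here, lay in 5 windows, 7.04% of them, against 0.97% of all 32851 windows. The shorter GCGCATGC, which every full match also holds, lay in 14.08% against 2.71%. The ETS motif CCGGAAGT lay in 7.04% against 3.89%, and the YY1 motif AAGATGGC in 14.08% against 2.75%. A match is a description of letters, not of a bound site. The 4 full NRF1 matches that lie wholly before the start, 42 to 162 bases upstream, are shown with 20 bases on either side on the strand of the gene, 5′ to 3′, with the motif in capitals. The sites lie at chr15:102671060-102671109 (minus strand), chr5:108434420-108434469 (minus), chr5:115349091-115349140 (minus) and chr17:56717682-56717731 (plus), in the order printed.
Atp5g2: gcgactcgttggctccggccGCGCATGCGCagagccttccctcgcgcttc
Atp5k: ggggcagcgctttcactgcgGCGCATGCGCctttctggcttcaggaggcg
Cox6a1: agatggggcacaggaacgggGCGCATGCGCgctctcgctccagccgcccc
Ndufa11: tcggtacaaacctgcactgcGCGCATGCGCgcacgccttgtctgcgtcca

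The fifth gene with the full NRF1 motif, Uqcrc1, does not hold it wholly before the start. Log2 fold changes of these 5 genes ran from -0.10 to 0.17, and their lowest adjusted p was 0.403. The single gene of the 80 that rose, Atp5f1 (named Atp5pb in RefSeq), is shown with its 250 upstream bases, chr3:105959264-105959513 on the minus strand, all in lower case because they hold none of the searched motifs before the start. The YY1 motif that its window does hold is not wholly before the start.
Atp5f1: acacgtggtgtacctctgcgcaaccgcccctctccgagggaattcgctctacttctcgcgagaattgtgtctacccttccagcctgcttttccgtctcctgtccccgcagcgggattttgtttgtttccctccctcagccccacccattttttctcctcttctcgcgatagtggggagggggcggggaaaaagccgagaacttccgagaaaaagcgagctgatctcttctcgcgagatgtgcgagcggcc

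Almost all nuclear-encoded subunits had similar transcript levels in the 2 groups. One gene, Atp5f1, which encodes subunit b of the ATP synthase peripheral stalk, was higher in the libraries labelled female, and none was lower. Summed over the 80 genes, the level was 6954, 6646 and 6776 CPM in male replicates 1 to 3 and 6433, 6670 and 7344 CPM in female replicates 1 to 3. The means were 6792 ± 154 and 6815 ± 473 CPM (SD, n = 3), a ratio of 1.00. The groups overlapped, with female replicate 1 lowest and female replicate 3 highest of the 6.

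By edgeR's quasi-likelihood test at an adjusted p under 0.05, 1 of the 80 genes passed, against 13.9% of the 11903 genes tested (7.29% higher, 6.62% lower). At an unadjusted p under 0.05, 3 were higher and 4 lower. DESeq2 and limma-voom also gave 1 higher and 0 lower. Log2 fold changes (female minus male) were above 0 for 39 genes and below 0 for 41, with a median of -0.0022 beside 0.0016 for all genes tested. A change within 0.2 log2 units of 0 was found for 75 of the 80, or 93.8%, and for 64.7% of all genes. The median size of a change was 0.07 and the median SE 0.08, so differences of that size lie within the error of a single gene here. Values were separate between the 2 groups, with no overlap, for 9 genes, against 30.9% of all genes tested: 7 with female above male (15.9% of all genes) and 2 with female below (15.0%).

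**Figure D1:**
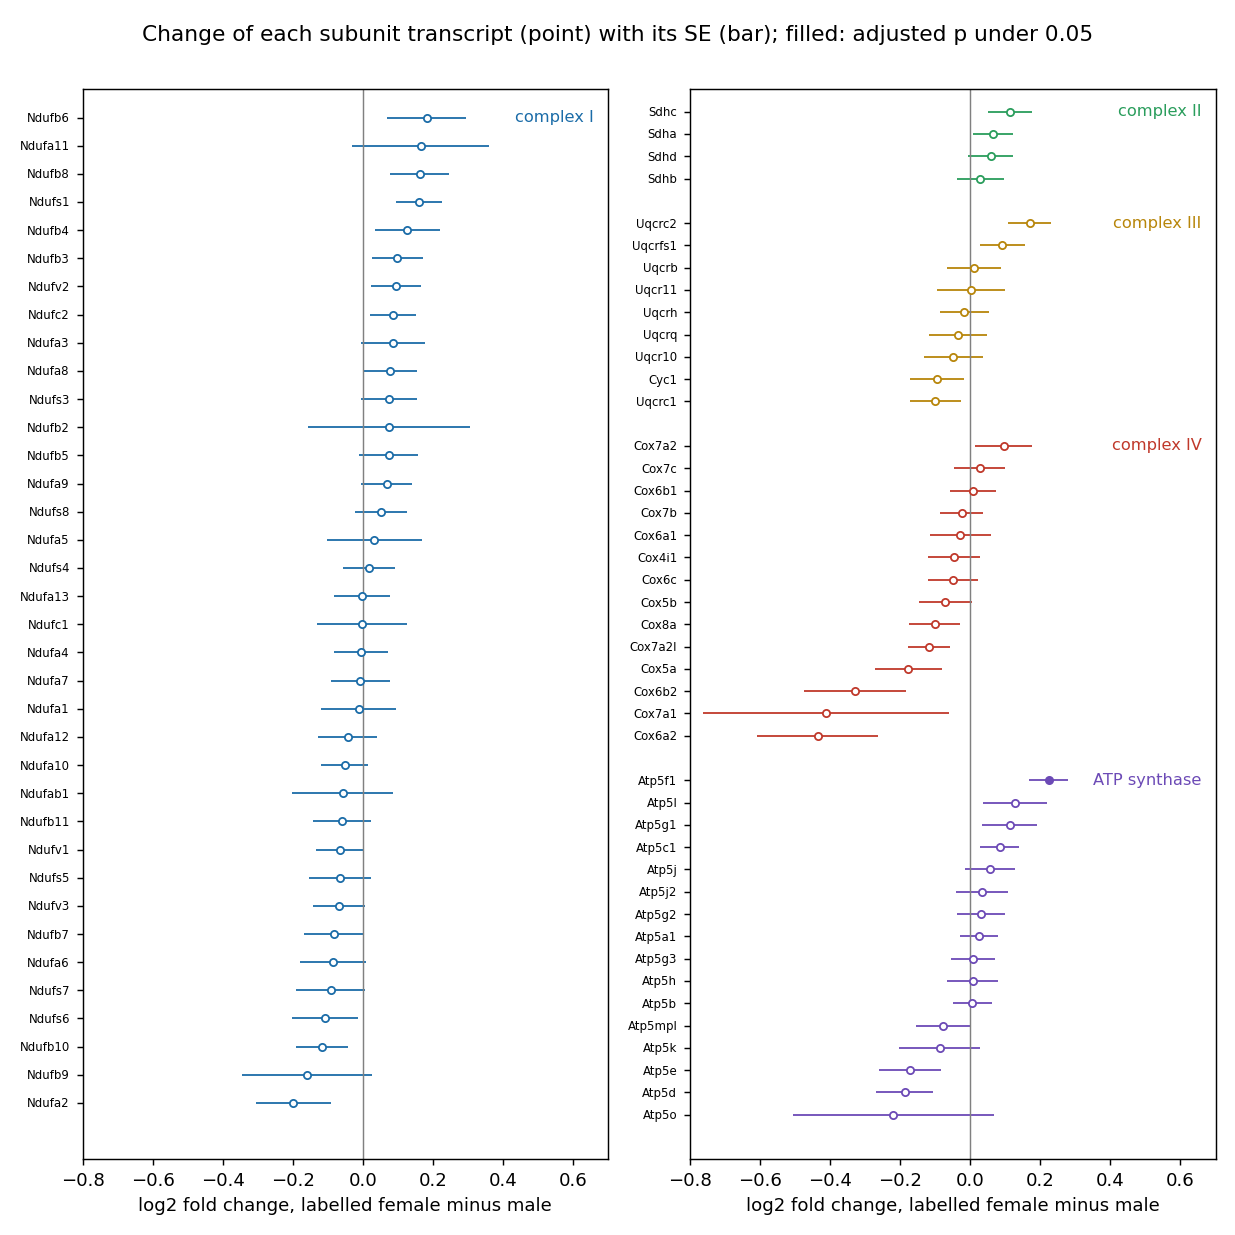
Log2 fold change (horizontal axis, libraries labelled female minus libraries labelled male, 3 of each) of 79 of the 80 subunit transcripts by complex, with bars of 1 SE; 1 complex I gene is not shown. The single filled point is Atp5f1, at 0.22; the 4 complex II points all lie above 0, and 11 of the 14 complex IV points lie below it.

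These counts depended on female replicate 3. It was the highest of the libraries labelled female for 67 of the 80 genes, or 83.8%, and the lowest for 2; over all genes tested it was highest for 40.6%. Female replicate 1 was the lowest of its label for 56 of the 80. Among the libraries labelled male the genes were more evenly spread, with male replicate 1 highest for 56.3%, beside 35.2% of all genes. The median difference between female replicate 3 and the mean of female replicates 1 and 2 was 0.21 on the log2 scale for the subunits and 0.01 for all genes tested.

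Without female replicate 3, 12 subunit genes were lower and 2 were higher, beside 10.5% and 11.9% of all genes, or 22.4% in all. Among the lower ones were Ndufa2, Ndufa6, Ndufb7, Ndufb10 and Ndufb11 of complex I, Uqcrc1 of complex III, Cox4i1, Cox7a2l and Cox8a of complex IV, and Atp5d and Atp5e of ATP synthase. The higher ones were Atp5f1 and Uqcrc2. The median log2 change of the 80 genes was then -0.08. Leaving out any other single library gave 0 lower and at most 1 higher.

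**Figure D2:**
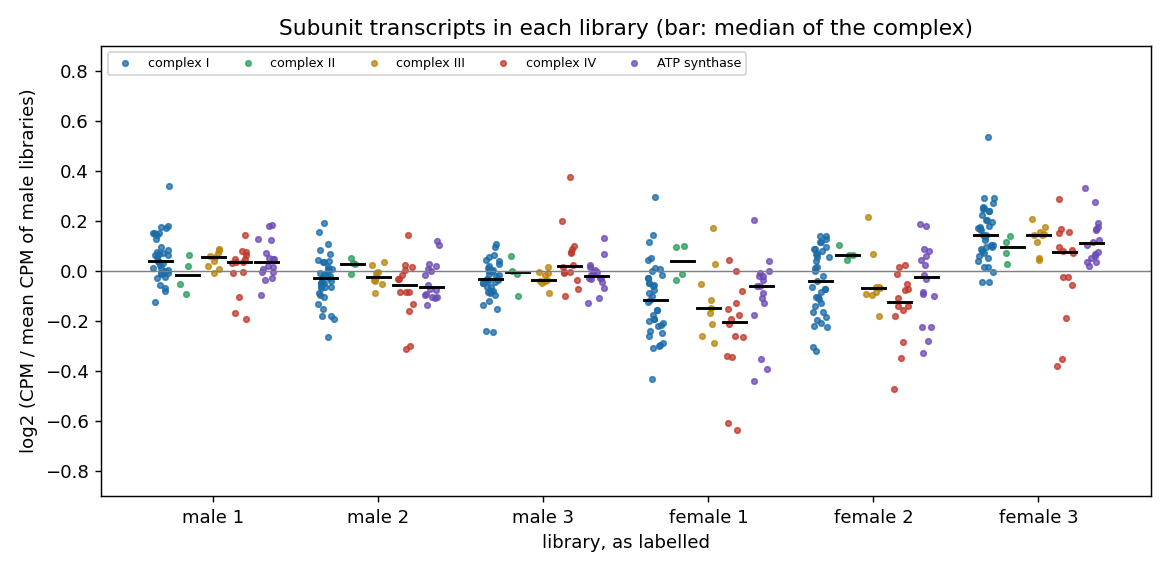
Each point is 1 subunit transcript in 1 library, as log2 of its CPM over its mean CPM in the 3 libraries labelled male (vertical axis), with libraries on the horizontal axis, colours for complexes and black bars for the median of a complex. The points of female replicate 3 lie above those of female replicates 1 and 2 for 67 of the 80 transcripts.

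Transcript length went with this difference between libraries. Subunit mRNAs are short, with a median of 723 bases beside 2766 for all genes tested. Across the 80 genes, length and the log2 difference of female replicate 3 from the other libraries of its label had a Spearman correlation of -0.46, and across the 11861 tested genes with a length it was -0.36. Length and the log2 change between groups had 0.23 across the 80 genes and 0.07 across all genes. The points share libraries, so these are descriptions without a test. Of the 40 subunit genes with the longer mRNAs, 6 had female values all above the male ones and none had them below, while of the 40 with the shorter mRNAs 1 was above and 2 below. Beside the 15.9% above and 15.0% below among all genes tested, the 6 of 40 are at the background share, and nothing is read from them. The part of length in the group differences was not tested.

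**Figure D3:**
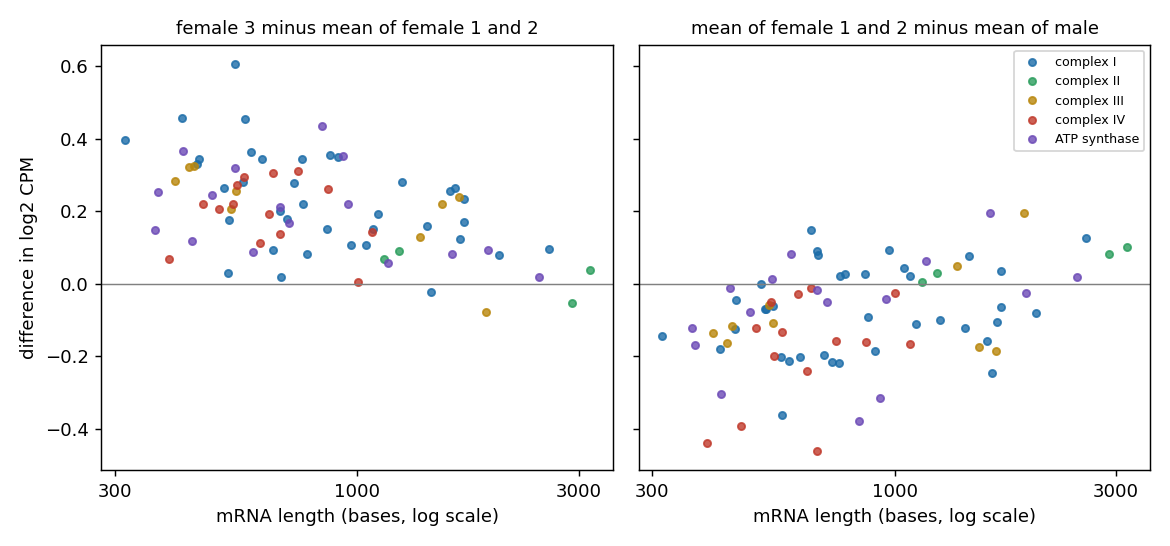
Length of each subunit mRNA (horizontal axis, bases, log scale) against 2 differences in log2 CPM: female replicate 3 minus the mean of female replicates 1 and 2 (left), and the mean of female replicates 1 and 2 minus the mean of the libraries labelled male (right). Shorter mRNAs lie higher on the left, with a Spearman correlation of -0.46 across 80 genes.

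Complex I takes electrons from NADH. Its 37 nuclear-encoded subunits gave no called gene, with 17 above 0 and 20 below and a median log2 change of -0.0030. The 7 core subunits, which form the catalytic arm, had a median of 0.05 and the 30 accessory subunits -0.0041. Ndufs1 (ENSMUSG00000025968, chromosome 1), the largest core subunit, had 55.9, 55.8 and 57.5 CPM in male-labelled libraries, against 61.1, 62.2 and 65.9 CPM in female-labelled ones. All values of one group lay above the other, but the log2 change of 0.16 (SE 0.07) did not pass (adjusted p = 0.116).

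Ndufa2, an accessory subunit of the NADH-oxidizing arm, had 47.3, 38.8 and 41.4 against 31.5, 34.5 and 45.1 CPM. Its log2 change was -0.20 (SE 0.11, adjusted p = 0.247), and -0.37 without female replicate 3 (adjusted p = 0.00183). It was -0.09 without female replicate 1 (adjusted p = 0.658) and -0.11 without male replicate 1 (0.619). Ndufb8, an accessory subunit of the membrane arm, had 31.1, 32.5 and 33.3 against 35.7, 33.2 and 39.5 CPM, groups that overlap (log2 0.16, SE 0.08, adjusted p = 0.225). The range over all 37 was -0.20 (Ndufa2) to 0.18 (Ndufb6).

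Ndufa4 carries a complex I name but is assigned to complex IV in later work. It had 103.9, 100.7 and 99.0 CPM against 95.3, 90.5 and 116.7 CPM, a log2 change of -0.0052 (SE 0.08, adjusted p = 0.974), with the lowest and the highest value both among the libraries labelled female.

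Complex II oxidizes succinate and is also an enzyme of the tricarboxylic acid cycle. All 4 of its genes had log2 changes above 0, from 0.03 to 0.11 with a median of 0.06, and none passed. Summed, they gave 419, 423 and 414 CPM in male-labelled libraries (SD 4.92), against 435, 439 and 442 CPM in female-labelled ones (SD 3.69). These sums did not overlap. Over the other scalings and tools tried the median stayed between 0.05 and 0.06.

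Sdhc (ENSMUSG00000058076, chromosome 1), a membrane anchor, had 72.5, 78.0 and 75.3 against 80.4, 81.0 and 82.9 CPM, without overlap (log2 0.11, SE 0.06, adjusted p = 0.249). Sdha, the flavoprotein that binds succinate, had 180.2, 176.1 and 176.2 against 190.5, 185.4 and 181.1 CPM, also without overlap (log2 0.06, SE 0.06, adjusted p = 0.495). Values of both Sdhd, the other anchor (log2 0.06, adjusted p = 0.606), and Sdhb, the iron-sulfur subunit (0.03, adjusted p = 0.824), overlapped between groups. The members with the longest mRNAs are here, Sdhc with 3171 bases and Sdha with 2900. For Sdha, female replicate 3 was the lowest of its label.

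Complex III passes electrons from ubiquinol to cytochrome c. None of its 9 genes passed, 4 lying above 0 and 5 below, with a median of -0.02. Uqcrc2 (ENSMUSG00000030884, chromosome 7), a core protein of the matrix side, had 82.0, 83.8 and 81.5 CPM against 93.0, 95.8 and 89.4 CPM. The groups did not overlap, and the log2 change of 0.17 (SE 0.06) had an adjusted p of 0.0705, or 0.0130 without female replicate 3 and up to 0.229 without another library. Of the exon bases of this gene 19.8% are shared with Pdzd9 on the other strand. Strand was not marked in the libraries, so reads of such partners cannot be told apart by strand.

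Its partner core protein Uqcrc1 had 130.6, 126.3 and 124.0 against 104.1, 119.7 and 131.7 CPM, a log2 change in the other direction of -0.10 (SE 0.07, adjusted p = 0.403). That value was -0.18 without female replicate 3 (adjusted p = 0.0234) and -0.01 without female replicate 1 (0.934). The Rieske iron-sulfur protein Uqcrfs1 (log2 0.09, adjusted p = 0.379), cytochrome c1, encoded by Cyc1 (-0.10, adjusted p = 0.453), and the hinge protein Uqcrh (-0.02, adjusted p = 0.906) all overlapped between groups. The 2 core proteins, which assemble as a pair, thus lay on opposite sides of 0 in these libraries. The difference between them was not tested.

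Complex IV, cytochrome c oxidase, reduces oxygen. Of its 14 genes 11 had log2 changes below 0, with a median of -0.06 (-0.07 to -0.06 over other scalings and tools), and none passed. The sums were 1260, 1191 and 1254 CPM against 1102, 1163 and 1313 CPM, so the groups overlapped through female replicate 3. Without that library the median was -0.16 and 3 of the 14 genes were lower, beside 10.5% of all genes tested in that fit.

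The lowest 3 changes belonged to isoforms known from particular tissues. Cox6a2 (ENSMUSG00000030785, chromosome 7), the heart and skeletal muscle form of subunit 6A, had 8.64, 7.87 and 12.6 CPM against 6.24, 7.61 and 7.59 CPM. The groups did not overlap, and the log2 change was -0.44 (SE 0.17, adjusted p = 0.102; 0.0478 with no filter on low counts). Its value rested in part on male replicate 3, the highest of the 6, without which the change was -0.21 (adjusted p = 0.518). Cox6b2, the testis form of subunit 6B, had 12.7, 9.75 and 13.9 against 9.52, 8.72 and 10.6 CPM, with overlap (log2 -0.33, SE 0.15, adjusted p = 0.144).

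Cox7a1, the muscle form of subunit 7A, was just inside the level threshold, with 20, 25 and 22 counts against 16, 21 and 20. Its CPM values did not overlap (1.13, 1.43 and 1.31 against 0.85, 1.06 and 0.99), but at this depth the change of -0.41 had an SE of 0.35 (adjusted p = 0.487). Of the exon bases of Cox6a2 10.3% are shared with Itgad on the other strand.

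The broadly expressed forms did not share these values. Cox6a1 had a log2 change of -0.03 (adjusted p = 0.869), Cox6b1 of 0.0081 (adjusted p = 0.951) and Cox7a2 of 0.10 (adjusted p = 0.487), each with overlapping groups. Per length of mRNA, Cox6a2 made up 7.27 ± 1.28% of the Cox6a1 and Cox6a2 level in male-labelled libraries and 5.64 ± 0.33% in female-labelled ones (SD, n = 3). Cox6b2 made up 11.8 ± 1.296% and 9.59 ± 0.75% of its pair, and Cox7a1 2.99 ± 0.22% and 2.14 ± 0.40%. The Cox6a2 and Cox7a1 shares did not overlap between groups, and those of Cox6b2 did not either (10.3 to 12.7% against 8.72 to 10.03%). The shares follow from the values that named these genes and have no test.

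Of the other complex IV genes, Cox7a2l, which joins complexes III and IV into supercomplexes, had 187.3, 178.6 and 181.7 against 159.7, 165.7 and 179.5 CPM (log2 -0.12, SE 0.06, adjusted p = 0.218), overlapping only through female replicate 3. Without that library its log2 change was -0.17 (adjusted p = 0.0177), and without any other it did not pass (adjusted p up to 0.505). Cox5a, a subunit of the early assembly steps, had a log2 change of -0.18 (SE 0.10, adjusted p = 0.246), Cox5b, which binds zinc, -0.07 (adjusted p = 0.588), and the small membrane subunit Cox8a -0.10 (adjusted p = 0.396). Cox4i1, the subunit through which ATP is known to act on the enzyme, had 185.1, 183.6 and 187.9 against 160.3, 172.4 and 206.4 CPM (log2 -0.05, adjusted p = 0.739). Its libraries labelled female lay on both sides of a narrow male range, and the change was -0.16 without female replicate 3 (adjusted p = 0.0267) and 0.03 without female replicate 1 (0.848).

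ATP synthase makes ATP in its F1 head, which a peripheral stalk holds against a rotating ring. Atp5f1 (ENSMUSG00000000563, chromosome 3) had 266.4, 254.5 and 251.9 CPM in male-labelled libraries, against 296.4, 293.6 and 312.2 CPM in female-labelled ones, means of 258 ± 7.70 and 301 ± 10.05 CPM (SD, n = 3). Every female value lay above every male one. The change was 1.17-fold, or 0.22 on the log2 scale (SE 0.06, adjusted p = 0.0108), and it stayed within 0.20 to 0.25 when any single library was left out. The call was lost without male replicate 2 (adjusted p = 0.0657) or male replicate 3 (0.0824).

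Of the exon bases of Atp5f1 8.21% are shared with Wdr77 and a predicted gene, both on the other strand. Wdr77 itself had 25.6, 23.0 and 20.8 against 24.4, 28.4 and 25.8 CPM and did not pass (log2 0.18, SE 0.10, adjusted p = 0.258). Within the complex, 11 of 16 genes lay above 0, with a median of 0.02. The sums were 2653, 2565 and 2619 against 2564, 2623 and 2820 CPM and overlapped.

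The rotating central stalk had members on both sides of 0. Atp5d, its delta subunit, had 95.9, 87.8 and 93.5 against 72.4, 76.2 and 94.8 CPM (log2 -0.19, SE 0.08, adjusted p = 0.140). Atp5e, its epsilon subunit, had 100.6, 85.8 and 90.4 against 70.4, 79.1 and 96.2 CPM (log2 -0.17, SE 0.09, adjusted p = 0.222). In both, female replicates 1 and 2 lay below every male value and female replicate 3 did not.

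Without female replicate 3 the changes were -0.31 for Atp5d (adjusted p = 0.000212) and -0.30 for Atp5e (0.000898). Without female replicate 1 they were -0.11 for Atp5d (adjusted p = 0.450) and -0.07 for Atp5e (0.662), and without male replicate 1 Atp5e had -0.10 (0.580). Atp5c1, the gamma subunit and axle of the same stalk, had 214.6, 216.4 and 214.7 against 221.1, 229.0 and 234.3 CPM, without overlap (log2 0.08, SE 0.06, adjusted p = 0.348).

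The alpha subunit Atp5a1 of the F1 head had 555, 566 and 576 against 563, 583 and 580 CPM (log2 0.02, adjusted p = 0.816), so the groups overlapped. The genes Atp5g1, Atp5g2 and Atp5g3 encode the same mature c subunit of the ring. Their log2 changes were 0.11 (adjusted p = 0.381), 0.03 (0.822) and 0.0082 (0.950), each with overlapping groups.

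Levels can be compared between genes only per length, here as mean CPM per kb of mRNA over all 6 libraries. The median was 50.3 for complex I, 60.5 for complex II, 76.3 for complex III, 142 for complex IV and 182 for ATP synthase. Within complex I, the range ran from 6.35 (Ndufab1, the acyl carrier protein) to 223.5 (Ndufa4, placed here by its name), with Ndufb7 next at 155.5. It ran from 24.7 (Sdhc) to 82.9 (Sdhd) in complex II and from 37.8 (Cyc1) to 244 (Uqcrh) in complex III.

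In complex IV the range was 2.87 (Cox7a1) to 245 (Cox4i1), and in ATP synthase 2.38 (Atp5o) to 383.5 (Atp5h, a peripheral stalk subunit). Transcript levels per length thus lay far apart within a complex. Atp5o encodes the protein that joins the stalk to the head and is annotated as 2 overlapping rows, one with 30 to 45 counts per library and one with 0 in all, so its level is uncertain. Annotated exons of another gene overlap 29 of the 80, and copies elsewhere in the genome may share reads with others, including the 7 genes under 10 CPM (Ndufab1, Ndufb2, Ndufb9, Ndufa11, Cox7a1, Cox6a2 and Atp5o).

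**Figure D4:**
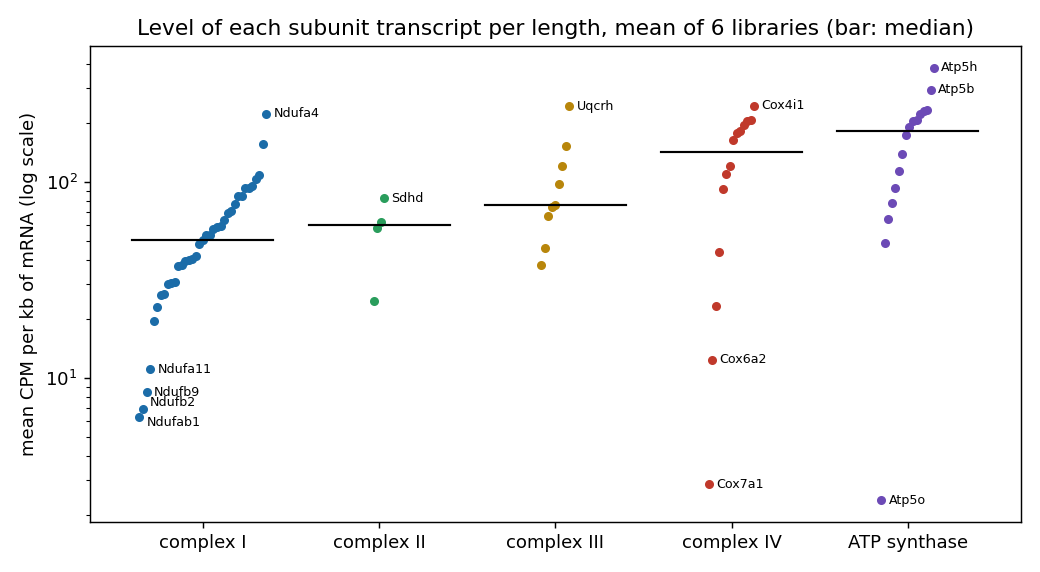
Mean CPM per kb of mRNA over 6 libraries (vertical axis, log scale) for each subunit transcript, by complex, with black bars at the medians of 50.3, 60.5, 76.3, 142 and 182. Points are labelled for the highest of each complex and for all genes of the lowest levels, among them Atp5o at 2.38 and Cox7a1 at 2.87.

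Outside the level threshold were Cox4i2, the second form of subunit 4, with 4, 12 and 5 against 6, 9 and 10 counts, Cox8b with 1 count in all, and Cox8c, Cox7b2 and the second Atp5o row with 0 in each library. The symbols or gene types of the annotation also left out 4 genes tied to these complexes or related to their subunits. Ndufa4l2, a relative of Ndufa4, had 1 count in all. Atpif1, the inhibitor of ATP synthase, had a log2 change of 0.04 (adjusted p = 0.923). Usmg5, a small ATP synthase subunit, had 0.08 (adjusted p = 0.568), and the complex I gene annotated as Ndufb1-ps had -0.04 (adjusted p = 0.796).

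The subunits of the same complexes that mitochondrial DNA encodes were lower in the libraries labelled female. Of 12 tested, 8 were lower and none higher, with a median log2 change of -0.71. Of the 80 nuclear-encoded ones 0 were lower, and of all genes tested 6.62%. The summed level of all 13 was 121525 ± 15237 CPM in male-labelled and 73797 ± 13075 CPM in female-labelled libraries (SD, n = 3), a ratio of 0.607. The ratio of mitochondrially to nuclear-encoded summed CPM was 19.5, 15.8 and 18.3 in male-labelled libraries and 11.2, 9.22 and 11.9 in female-labelled ones, without overlap; it was given no test.

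By complex this ratio was 22.1 ± 2.17 against 13.4 ± 1.55 for complex I, 24.5 ± 2.80 against 15.0 ± 1.95 for complex III and 51.7 ± 4.82 against 32.5 ± 4.12 for complex IV. The 3 genes with the smallest adjusted p were mt-Nd6 (log2 -0.73, adjusted p = 1.09e-05), mt-Nd5 (-0.78, adjusted p = 1.79e-05) and mt-Nd4 (-0.73, adjusted p = 3.21e-05), all subunits of complex I. The 2 groups of transcripts differ in how they are made and processed and in their length, and the nuclear sum moved with female replicate 3 as described. Counts of mt-Atp6, mt-Co3, mt-Nd3 and mt-Nd4l are uncertain because it is not known how reads shared with neighbours or copies elsewhere were counted. None of these 4 passed (adjusted p = 0.296, 0.322, 0.151 and 0.226). The same may hold for mt-Co2, which passed as lower (mean 214 CPM in male-labelled libraries, 142 in female-labelled ones, adjusted p = 0.0016). In complex IV, mt-Co1 held 63506 of 63893.2 summed mitochondrially encoded CPM in male-labelled libraries (means). It held 38546 of 38804.5 CPM in female-labelled ones, so the complex IV ratio is almost that of mt-Co1 alone.

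**Figure D5:**
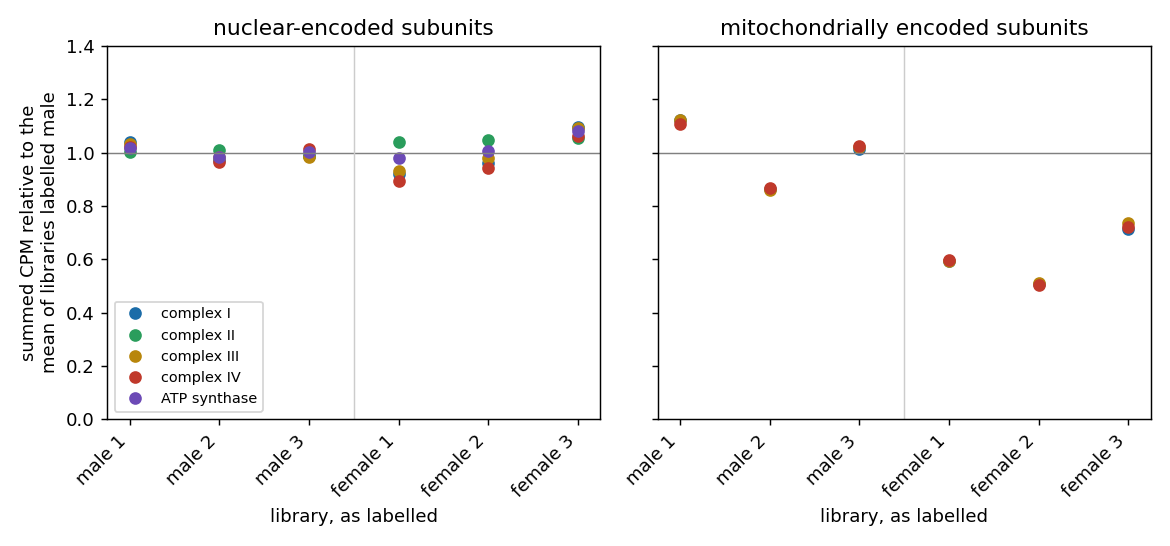
Summed CPM of the nuclear-encoded (left) and mitochondrially encoded (right) subunits of each complex in each library, relative to the mean of the libraries labelled male (vertical axis from 0, line at 1); mitochondrially encoded subunits of ATP synthase are left out because of their uncertain counts. Nuclear-encoded sums lie around 1 in all 6 libraries and are highest in female replicate 3 for every complex. Mitochondrially encoded sums of the libraries labelled female lie below those of every library labelled male.

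Genes that build and serve these complexes were read from lists, and most did not pass. Of all genes tested, 7.29% were higher and 6.62% lower. Among assembly factors, 1 of 17 for complex I was lower and none of 3 for complex II, 6 for complex III, 22 for complex IV or 6 for ATP synthase passed. The one was Dmac2, a factor for the membrane arm of complex I, with 26.3, 27.2 and 26.5 against 19.8, 20.6 and 20.6 CPM. Its log2 change was -0.39 (SE 0.09, adjusted p = 0.00586), with no overlap. In each other assembly list the gene with the smallest p was Sdhaf2 (log2 0.14, adjusted p = 0.262), Lyrm7 (0.51, adjusted p = 0.323), Coa5 (0.17, adjusted p = 0.0664; 0.0120 without female replicate 3) and Fmc1 (-0.26, adjusted p = 0.269). Sco2 and Pet117, of the complex IV list, were at 0 in all libraries.

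Of 19 electron carrier and quinone genes 1 was lower: Coq10a, a ubiquinone-binding protein, with 19.0, 15.8 and 17.9 against 11.1, 12.4 and 14.7 CPM (log2 -0.46, SE 0.12, adjusted p = 0.0159). That call was lost without male replicate 1 (adjusted p = 0.0828) or 3 (0.0675) or female replicate 1 (0.0829) or 2 (0.0590). None of 14 tricarboxylic acid cycle genes passed (smallest p for Dld, log2 0.17, adjusted p = 0.0873; 0.0246 without female replicate 3), nor did any of 15 genes of mitochondrial DNA expression (Polg, -0.16, adjusted p = 0.115; 0.0310 without female replicate 3) or of 8 nuclear regulators (Gabpb1, a GABP subunit, 0.22, adjusted p = 0.0577; 0.0449 with no filter). On leaving out any other single library, Coa5, Dld and Polg did not pass.

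The list of mitochondrial membrane and import genes had 3 of 16 higher and none lower, beside 7.29% and 6.62% of all genes tested. Hspd1, the matrix chaperonin, had 164.5, 171.3 and 168.2 against 232.5, 254.2 and 194.5 CPM (log2 0.43, SE 0.08, adjusted p = 0.000449). Tomm22, a receptor of the outer membrane import channel, had 85.0, 87.1 and 83.8 against 100.2, 103.2 and 112.6 CPM (log2 0.30, SE 0.06, adjusted p = 0.00253). Vdac1, the outer membrane pore, had a log2 change of 0.20 (adjusted p = 0.0332). It did not pass without male replicate 1, 2 or 3 or female replicate 2 (adjusted p = 0.152, 0.112, 0.0861 and 0.176). Nor did it pass with upper-quartile factors in place of TMM (adjusted p = 0.0510). Groups did not overlap for any of these 3 genes. The median log2 change of the list was 0.06, beside 0.0016 for all genes.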

How the data were processed

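Each of the 6 deposited tables holds unnormalized read counts, in whole numbers, for 21955 Ensembl identifiers. Per the labels' protocols, poly-A RNA was fragmented, primed at random and size-selected, and strand was not marked. The submitters' processing notes name cutadapt 1.15, HISAT2 2.0.5 and GRCm39, with no role stated. How reads were counted, and whether by strand, is not stated in those notes or labels. Symbols, gene types, exon overlaps and mRNA lengths came from GENCODE M21 (GRCm38), which named 21847 identifiers, so no gene coordinates are given apart from RefSeq promoters. Labels name no batch, and groups follow the labelled sex.

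The test was that of edgeR 4.0.16, run in R 4.3.3 (TMM, filterByExpr with minimum count 10, quasi-likelihood test, group as the only term, Benjamini-Hochberg adjustment over 11903 genes, threshold 0.05), a pipeline also tested on simulated data. Each SE is the size of the change over the root of F. Alternatives were DESeq2 1.42.0, limma-voom (limma 3.58.1), other scalings, filters and thresholds, the replicate block and leaving out each library.

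The genes and lists were chosen with earlier results of these data known. Named were, per complex, the 4 smallest adjusted p, the most abundant, isoform families, Ndufa4, Cox7a2l, genes near the level threshold, and called genes changed at least 1.3-fold; per list, up to 3 called genes or the smallest p. One of these genes is counted but not reported here. Others were singled out after their values were seen. An mRNA length is that of the shortest principal transcript, chosen after per-length values were seen, since the median over principal transcripts made Atp5g1 far longer than its sister genes; that family has no per-length shares for the same reason. Exon overlap counts any annotated gene.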

Additional observations from a re-analysis of the deposited data

How the results depend on the processing

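Under DESeq2 size factors, upper-quartile factors, counts without mitochondrially encoded genes, DESeq2, limma-voom and a filter of 10 CPM in 3 libraries (which tests 73 of the 80 genes), 1 subunit gene was higher and 0 were lower, as in the reported fit. At an adjusted p under 0.01, 0 were higher. With no filter, 1 was lower. Leaving out each library in turn gave 0 to 2 higher and 0 to 12 lower; the cause was not tested. Pairing by replicate number was not seen (same-numbered deviations correlated at -0.04, 0.06 and 0.06, and not every library correlated best with its own number). With 3 libraries a group, these values cannot decide it. The fit with the replicate block gave 1 subunit gene higher and 0 lower. Over all genes it gave 1007 higher and 914 lower, against 868 and 788. Log2 changes near 0 took the other sign: Atp5g3 -0.0058 with upper-quartile factors and -0.0062 with the 10 CPM filter, Cox6b1 -0.0057 and -0.0062, and Ndufa4 0.0041 with no filter. Ranges on leaving out a library spanned 0 for Atp5g2 (-0.0086 to 0.094), Atp5g3 (-0.049 to 0.054), Ndufa4 (-0.12 to 0.069), Sdhb (-0.015 to 0.061), Uqcrh (-0.11 to 0.032), Cox4i1 (-0.16 to 0.031), Cox6a1 (-0.13 to 0.077), Cox6b1 (-0.032 to 0.054) and Cox7a2 (-0.013 to 0.18). For lists, carrier and quinone genes gave 0 lower at the 0.01 threshold, beside 3.44% of all genes. They gave 2 lower with no filter, the 10 CPM filter or the replicate block, beside 5.55%, 9.39% and 7.68%. On leaving out a library they gave 0 to 2 lower. With no filter 1 of 8 nuclear regulators was higher, beside 6.85% of all genes. Without female replicate 3, 1 of 22 complex IV assembly genes and 2 of 14 tricarboxylic acid cycle genes were higher, beside 11.9% of all genes. In that fit 1 of 15 genes of mitochondrial DNA expression and 1 of 16 of membrane and import were lower, beside 10.5%. Nothing is read from these list counts. With 3 libraries a group, changes near the median SE of 0.08 are not resolved, and larger ones can also fail to pass. Uqcrc2 (log2 0.17, SE 0.06) and Ndufs1 (0.16, SE 0.07) did not pass, so an uncalled gene may still differ by that much. Genes under 10 CPM are less precise, as the SE of 0.35 for Cox7a1 shows.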

Other observations

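Of the 80 genes 3 lie on the X chromosome, and they were looked at because the Y-linked transcripts go against the label female; they were chosen after other values were seen. Ndufa1, a complex I subunit, had a log2 change of -0.01 (SE 0.11, adjusted p = 0.956). Ndufb11, another complex I subunit, had -0.06 (SE 0.08, adjusted p = 0.689), and the complex IV subunit Cox7b had -0.02 (SE 0.06, adjusted p = 0.830). Values of the 2 groups overlapped for all 3 genes. Nothing about the label is read from them.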
